A study of Homo sapiens with 90 samples.

Results

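ETV1, ETV4 and ETV5 are the 3 PEA3 factors, a branch of the ETS family of transcription factors. Their messenger RNA was followed in 6 human cancer cell lines together with that of ETS1 and ETS2, of GABPA and GABPB1, and of TERT, the reverse transcriptase of telomerase. The 8 genes were found by symbol among the 53893 gene IDs of the count table, and all 8 were present. They were selected on values of these libraries, among them the low levels of ETV4, ETV5 and TERT under the targeted drugs at 48 h. The comparison of those drugs with DMSO is therefore given for the 8 genes as a description, with no test, and so are, for ETV4, ETV5 and TERT, the comparisons of the combination and of 7 days with those 48 h libraries.

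RNA was sequenced from 90 libraries, 3 for each of 5 arms in each of 6 lines. A375, a melanoma line, received the BRAF inhibitor vemurafenib at 1 uM. Of the lung adenocarcinoma lines, A549 was given 200 nM GSK1120212 (trametinib, an inhibitor of MEK), H3122 the ALK and MET inhibitor crizotinib at 250 nM, and PC9 the EGFR inhibitor erlotinib at 1 uM. N87, a gastric carcinoma line, received the EGFR and HER2 inhibitor lapatinib at 100 nM. RT112, from a urinary bladder carcinoma, was treated with 1 uM BGJ398, which inhibits FGFR. The drug common to all lines was THZ1, which binds the transcriptional kinase CDK7 covalently, at 50 nM in A375 and H3122, 150 nM in A549, 25 nM in N87 and 100 nM in PC9 and RT112. The 5 arms were the combination of the targeted drug with that dose of THZ1 for 48 h, THZ1 alone for 48 h, the targeted drug for 7 days, the targeted drug for 48 h, and 0.1% DMSO for 48 h. No arm held DMSO for 7 days. Each line is 1 cell line with its own drug and doses, and nothing in the labels tells whether the 3 libraries of a group are separate cultures. Within a line, p-values then reflect the spread between libraries, which may be technical. The test of a difference between lines uses the same spread. In it the line, its drug and its doses cannot be told apart.

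The PEA3 factors are induced by receptor tyrosine kinase signalling through the RAS and ERK kinases and in turn switch on genes of proliferation and invasion. The repressor capicua binds short octamers near PEA3 genes and holds them off until ERK inactivates it, and ubiquitin ligase complexes with COP1 and DET1 degrade the PEA3 proteins. ETS1 and ETS2 are substrates of ERK themselves and bind the same DNA core as the PEA3 factors. GABPA is the DNA-binding subunit of the GABP factor and GABPB1 a partner that carries the activation domain and lets it form tetramers. Telomerase activity in tumour cells is limited mainly by TERT, whose promoter is controlled by ETS factors, by MYC at E-boxes and by others.

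RefSeq promoter windows of 250 bases before to 50 after a start site (GRCh38.p14) were at hand for TERT, ETV1, ETS2, GABPA and GABPB1. The 250 bases before the start are printed for TERT and for 1 of the 6 ETV1 starts, because these are the 2 windows of the set that hold an E-box and the ETV1 one also holds a capicua octamer. Both are read 5′ to 3′ on the strand of the gene, TERT from chr5:1295069-1295318 and ETV1 from chr7:13991426-13991675, each on the minus strand. Capitals mark the ETS core GGAA, which appears as TTCC when it lies on the other strand, the E-box CACGTG, and in ETV1 the capicua octamer TGAATGGA.
TERT: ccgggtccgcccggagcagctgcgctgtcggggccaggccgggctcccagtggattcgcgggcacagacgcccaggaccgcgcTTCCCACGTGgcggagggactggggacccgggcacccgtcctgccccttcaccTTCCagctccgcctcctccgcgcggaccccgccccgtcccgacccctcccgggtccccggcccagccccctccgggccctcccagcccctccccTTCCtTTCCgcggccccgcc
ETV1: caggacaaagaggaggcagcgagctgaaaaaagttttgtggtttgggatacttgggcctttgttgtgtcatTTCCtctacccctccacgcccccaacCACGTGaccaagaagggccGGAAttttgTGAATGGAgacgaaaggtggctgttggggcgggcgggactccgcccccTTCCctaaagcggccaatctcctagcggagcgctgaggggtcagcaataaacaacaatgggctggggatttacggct
The TERT window held 4 ETS cores, all on the other strand, with their first bases at -167, -114, -20 and -15 from the start. Its single E-box directly follows the farthest of these cores. No CCGGAA, the core with a flank that many ETS proteins prefer, was found in these letters. They are the letters of the reference genome, and the promoter sequence of the 6 cell lines, which may differ from it, was not read here. The ETV1 window held 4 ETS cores, 1 of them as CCGGAA and 1 after the start, outside the printed bases. Over 34943 RefSeq windows of the same length, on both strands, GGAA was present in 95.45%, CCGGAA in 17.18%, CACGTG in 7.229% and a capicua octamer (TGAATGAA or TGAATGGA) in 2.613%. The other 5 ETV1 windows, 2 of ETS2 and 1 each of GABPA and GABPB1 held 2 to 7 ETS cores each, with no octamer and no E-box.

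The totals of the libraries ran from 5.64 to 14.36 M expected counts (M, 1e6) with a median of 11 M, and levels are given in CPM, counts per 1e6 counts of a library's total. Markers of the labelled tissues were present in part. The melanocyte sum of A375 (682 to 1857 CPM) was mostly SOX10 (median 951 CPM), with PMEL at 1.65 CPM and TYR at 0 CPM, and PMEL was higher in N87, PC9 and RT112 (5.84 to 8.26 CPM). The lung epithelial sum of H3122 (169 to 772 CPM) was mostly NKX2-1 (median 442 CPM), with SFTPC and SCGB1A1 at 0 CPM, and the sum reached no more than 3.05 CPM in A549 and 2.30 CPM in PC9. Gastric markers summed to no more than 10.7 CPM in N87, below A549 (244.5 to 617 CPM) and H3122 (15.2 to 209 CPM). Urothelial markers summed to 1351 to 3491 CPM in RT112, 377 to 1251 CPM in N87, 285 to 478 CPM in PC9 and 142 to 379 CPM in A549. Blood cell markers summed to 1.29 to 72.6 CPM over all lines. All 4 RT112 libraries with replicate number 1 stood apart from the others of their groups in ETS2, and their values are given beside that gene. Fold changes below are log2 values from edgeR's quasi-likelihood fits with their standard errors (SE), and adjusted p is the Benjamini-Hochberg value over all genes tested in the same fit, with calls at under 0.05. The fits scale libraries by TMM and CPM values are not scaled, which shifts a contrast of CPM by -0.13 to 0.16 on the log2 scale depending on line and arms. Both measures are relative to the other genes of a library. A change shared by most transcripts, under THZ1 or another drug, would not be seen in them. In these bulk libraries fewer cells holding a transcript and less of it in each cell cannot be told apart.

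In DMSO, ETV4 was highest in A375 at 235 ± 8.62 CPM (mean ± SD, n = 3, as throughout) and lowest in N87 at 51.2 ± 1.49 CPM. Between these stood RT112 at 140.1, H3122 at 97.1, PC9 at 73.8 and A549 at 73.4 CPM, and of these neighbours PC9 and A549 alone overlapped. ETV5 followed another order, from A375 at 113 ± 3.08 CPM through A549 (65.8), RT112 (54.6), PC9 (35.6) and H3122 (31.3) to N87 at 29.2 ± 1.83 CPM, with overlap between H3122 and N87. ETV1 ran from 72.2 ± 2.67 CPM in A375 through 38.03 in H3122, 18.1 in A549, 4.78 in PC9 and 4.09 in N87 to 0.626 ± 0.415 CPM in RT112, with overlap between PC9 and N87. RT112 had 25 counts of ETV1 in its 3 DMSO libraries.

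TERT was high in RT112, with 815 counts in its 3 DMSO libraries, and low in PC9, with 28 counts. Its DMSO level was 20.3 ± 1.21 CPM in RT112, 7.33 ± 0.688 in A375, 3.41 ± 1.29 in H3122, 3.38 ± 0.252 in N87, 2.02 ± 0.618 in A549 and 0.812 ± 0.342 CPM in PC9. H3122 overlapped N87 in this order, and the other neighbours did not overlap. ETS2 ran from 202 CPM in N87 and 139 in A549 to 45.6 in PC9, 42.5 in H3122 and 17.2 CPM in A375, with RT112 at 459, 191 and 196 CPM in its 3 libraries. ETS1 lay between 11.9 CPM in A549 and 60.9 CPM in PC9. GABPA was at 22.98 to 43.8 CPM in 5 lines and 97.6 CPM in RT112, and GABPB1 at 28.6 to 43.6 CPM.

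To compare genes with each other, mean CPM was divided by the length in kilobases of the longest coding transcript or, as a second choice, of all exons of the gene (GENCODE v29). On both scales ETV4 was the most abundant of the 8 genes in DMSO in A375, H3122 and PC9, and ETS2 in A549, N87 and RT112. The RT112 rank rested on replicate 1 on the transcript scale alone. In the other 2 libraries ETV4 came first on that scale (59.01 CPM per kilobase, ETS2 49.2) and ETS2 on the exon scale (42.2 CPM per kilobase, ETV4 39.7). Under the targeted drug at 48 h the top gene on both scales was ETS1 in A375 and ETS2 in A549, N87, PC9 and RT112, while in H3122 it was still ETV4. TERT had the lowest level per kilobase in A375, A549, H3122 and PC9 in DMSO, and ETV1 in N87 and RT112. Within the PEA3 trio on the transcript scale, ETV4 supplied 61.8 to 81.2% of the summed level in DMSO in the 6 lines. In A375 under vemurafenib for 48 h ETV4 supplied 10.1% of the sum and ETV1 49.0%, against 71.7 and 7.96% in DMSO. The summed PEA3 level there was 6.95 CPM per kilobase under vemurafenib and 134.8 CPM per kilobase in DMSO.

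The values that led to the choice of these genes were as follows. ETV4 under the targeted drug for 48 h stood at 1.51, 2.22 and 1.38 CPM in A375, against 244, 231 and 229 CPM in DMSO. In A549 it stood at 0.253, 0 and 0.405 CPM under GSK1120212 against 78.3, 68.99 and 72.99 CPM in DMSO. RT112 had 1.08, 1.56 and 0.791 CPM under BGJ398 against 134, 139.6 and 147 CPM in DMSO. The ratios of mean CPM, DMSO over drug, were 138 in A375, 335 in A549 and 123 in RT112. The A549 ratio rests on 7 counts under the drug and was 363 without GSK1120212 replicate 2, 223 without replicate 3 and 581 without replicate 4. The PC9 libraries held 1.98, 2.07 and 1.46 CPM under erlotinib against 73.9, 72.9 and 74.7 CPM in DMSO, and the N87 libraries 6.84, 5.55 and 5.45 CPM under lapatinib against 49.6, 52.6 and 51.3 CPM in DMSO. H3122 showed the smallest gap, with 48.6, 38.3 and 36.9 CPM under crizotinib against 93.8, 101 and 96.3 CPM in DMSO. The drug and DMSO libraries did not overlap in any line.

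ETV5 under the targeted drug at 48 h was at 0, 0.311 and 0.158 CPM in RT112, against 48.5, 60.7 and 54.5 CPM in DMSO. PC9 had 0.172, 0.296 and 0.273 CPM under erlotinib and 37.4, 34.5 and 34.9 CPM in DMSO, and A549 0.337, 0.538 and 0.405 CPM under GSK1120212 and 65.2, 67.5 and 64.8 CPM in DMSO. These 3 lines had under 1 CPM of ETV5 in every library under the drug. In A375 the values were 7.72, 10.96 and 16.3 CPM under vemurafenib and 115, 114 and 109 CPM in DMSO. H3122 had 12.6, 11.2 and 11.1 CPM under crizotinib and 32.3, 32.2 and 29.3 CPM in DMSO, and N87 4.74, 5.75 and 5.55 CPM under lapatinib and 27.6, 28.7 and 31.2 CPM in DMSO. ETV1 was at 22.97 ± 1.88 CPM under vemurafenib in A375, against 72.2 ± 2.67 CPM in DMSO, and at 17.9 ± 1.42 CPM under crizotinib in H3122, against 38.03 ± 0.792 CPM in DMSO. In N87 the means were 1.11 CPM under lapatinib and 4.09 CPM in DMSO, and 5 counts in all were left in A549, 3 in PC9 and 4 in RT112 under the drug, against 627, 164 and 25 counts in DMSO.

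**Figure D1:**
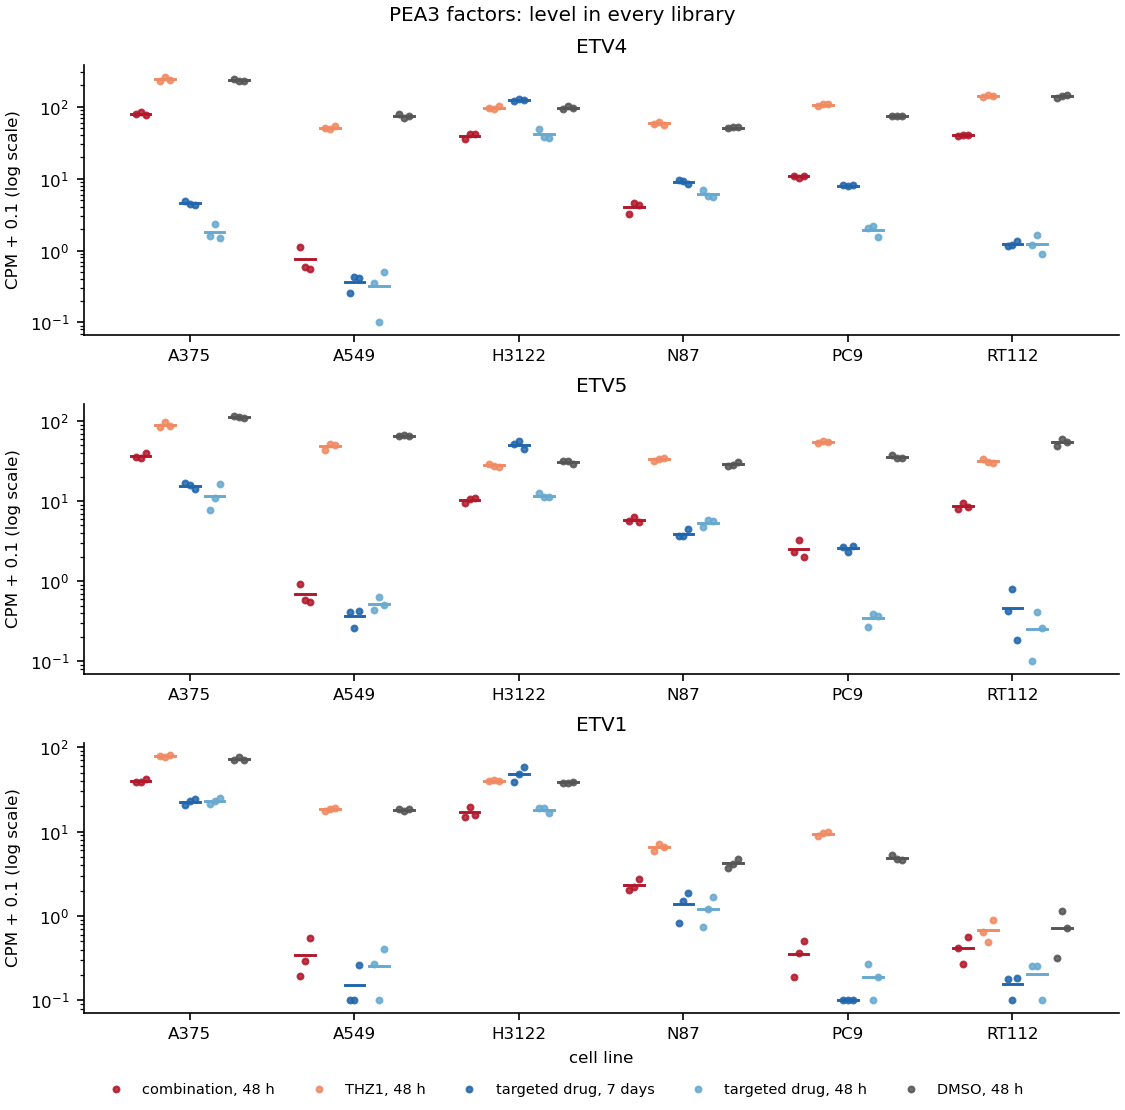
Level of ETV4, ETV5 and ETV1 in each library (points, CPM + 0.1 on a log axis) and group mean (bars, n = 3), by cell line and arm. In A375, A549 and RT112 the mean of ETV4 is 1.71, 0.219 and 1.14 CPM under the targeted drug at 48 h and 235, 73.4 and 140.1 CPM in DMSO, and the combination lies between them at 80.0, 0.652 and 40.1 CPM.

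With the drug added to THZ1, PEA3 transcripts fell in every line in which they were tested. The combination and THZ1 arms share no library with the comparison that chose the genes, although the combination contains the same targeted drug. Within lines, 6 of 8 members were called in A375, where 41.1% of genes were called, 8 of 8 in A549 (71%), 5 of 8 in H3122 (49.2%), 6 of 8 in N87 (72.1%), 7 of 8 in PC9 (61.5%) and 4 of 7 in RT112 (51.9%). The contrast differed between the 6 lines for all 8 members, as it did for 70.2% of 19655 genes, and the adjusted p of that F test was 4.15e-38 for ETV4 and 1.71e-30 for ETV5. Across lines, with the line as the replicate, 3 of the 7 members tested were called in the combination against THZ1, where 20.7% of the 11875 genes tested were called. ETV4 changed by -2.61 ± 0.86 (adjusted p = 0.0352). The ETV5 change was -2.96 ± 0.86 (adjusted p = 0.0208) and that of TERT -1.87 ± 0.64 (adjusted p = 0.0411). The calls of ETV4 and ETV5 were lost without A549, N87 or PC9, with adjusted p-values of 0.0711 to 0.114, and the TERT call without any one of A375, A549, N87, PC9 or RT112 (0.0643 to 0.142). With no filter on low counts ETV4 (0.0614) and TERT (0.073) were not called either. ETV1 was not tested across lines because of its low counts in RT112.

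ETV4 in the combination stood at 1.02, 0.486 and 0.446 CPM in A549, against 50.8, 48.8 and 53.1 CPM under THZ1. N87 had 3.12, 4.499 and 4.18 CPM in the combination against 57.8, 61.9 and 55.2 CPM under THZ1, and PC9 10.9, 10.2 and 10.7 against 102, 109.9 and 109 CPM. No combination library of these 3 lines came near a THZ1 library. The log2 fold changes were -6.29 ± 0.16 (adjusted p = 7.48e-18) in A549, -3.96 ± 0.10 (adjusted p = 1.09e-17) in N87 and -3.21 ± 0.06 (adjusted p = 2.60e-19) in PC9. In A375 the combination libraries held 79.1, 83.3 and 77.6 CPM, against 229.6, 254 and 232 CPM under THZ1. RT112 had 39.1, 40.8 and 40.3 CPM in the combination and 137, 143 and 140.4 CPM under THZ1, and H3122 34.98, 41.1 and 41.96 CPM in the combination and 96.1, 92.8 and 102 CPM under THZ1. Here too the groups were apart, by 2.98-fold, 3.502-fold and 2.46-fold in mean CPM, with log2 fold changes of -1.63 ± 0.05 (adjusted p = 6.28e-14), -1.85 ± 0.06 (adjusted p = 2.30e-12) and -1.38 ± 0.09 (adjusted p = 1.61e-09).

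ETV5 fell in the same 6 lines. A549 had 0.838, 0.486 and 0.446 CPM in the combination and 43.6, 52.5 and 50.2 CPM under THZ1, a log2 fold change of -6.37 ± 0.15 (adjusted p = 1.21e-18). PC9 had 2.201, 3.197 and 1.94 CPM in the combination and 54.3, 56.4 and 54.9 CPM under THZ1, a log2 fold change of -4.36 ± 0.11 (adjusted p = 1.06e-17). In the other 4 lines the fall was smaller, with log2 fold changes of -2.61 ± 0.10 in N87, -1.91 ± 0.15 in RT112, -1.52 ± 0.11 in H3122 and -1.34 ± 0.11 in A375. The highest of their adjusted p-values was 2.50e-08. A375 had 36.3, 34.5 and 39.97 CPM in the combination and 85.6, 98.7 and 87.03 CPM under THZ1. RT112 had 7.89, 9.57 and 8.34 CPM in the combination and 34.2, 30.8 and 29.7 CPM under THZ1, and the groups were apart in both lines. ETV1 also fell in the 5 lines where it was tested, with log2 fold changes of -6.16 ± 0.26 in A549, -5.04 ± 0.31 in PC9, -1.58 ± 0.24 in N87, -1.34 ± 0.12 in H3122 and -1.03 ± 0.07 in A375 (highest adjusted p = 6.28e-06). The A549 and PC9 values rest on 8 counts each in the combination. There ETV1 passed the count filter through the arms where it was higher, as did ETV4 and ETV5 in A549. Their p-values in this comparison carry that limit. In RT112, where ETV1 had 12 counts in the combination and 23 under THZ1, it was too low to be tested.

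The second comparison sets the combination against the targeted drug alone at 48 h and so asks what THZ1 added. ETV4, ETV5 and TERT were chosen for their low levels in the libraries of that drug, so their values are a description here, with no test, and ETV1, ETS1, ETS2, GABPA and GABPB1 were tested. ETV1 was also below DMSO in those libraries in all 6 lines. All 8 genes were selected on values of these libraries. The p-values of ETV1, ETS1, ETS2, GABPA and GABPB1 against the drug at 48 h carry that limit. Across lines none of the 4 tested members (ETV1 was too low) was called in the combination against the targeted drug, where 8.03% of genes were. EdgeR had none of the 4 at an unadjusted p under 0.05 either, and DESeq2 called none. Within lines, 4 of the 5 tested members were called in A375 (background 68.5% of genes), 2 of 5 in A549 (41%), 1 of 5 in H3122 (29.6%), 3 of 5 in N87 (55.7%), 3 of 5 in PC9 (68.2%) and 1 of 4 in RT112 (64.2%). The contrast differed between lines for all 5 and for 73.8% of genes.

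ETV4 was higher in the combination than under the drug in 4 lines by group mean. In A375 it averaged 80.0 ± 2.94 CPM in the combination and 1.71 ± 0.453 CPM under vemurafenib, a log2 fold change of 5.43 ± 0.11. RT112 had 40.1 ± 0.857 CPM in the combination and 1.14 ± 0.387 CPM under BGJ398 (5.16 ± 0.10). The ratios of mean CPM, combination over drug, were 46.9 in A375 and 35.05 in RT112. PC9 had 10.6 ± 0.363 CPM in the combination, against 1.83 ± 0.331 CPM under erlotinib (2.45 ± 0.12). A549 had 21 counts in the combination and 7 under GSK1120212 (1.498 ± 0.57). In N87 ETV4 was lower, at 3.93 ± 0.723 CPM in the combination, against 5.95 ± 0.778 CPM under lapatinib (-0.64 ± 0.16). H3122 had 39.3 ± 3.802 CPM in the combination and 41.2 ± 6.37 CPM under crizotinib, a log2 fold change of -0.07 ± 0.09.

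ETV5, also as a description, had its largest difference in RT112, with 8.597 ± 0.869 CPM in the combination against 0.157 ± 0.156 CPM under BGJ398, where the 3 libraries held 6 counts in all (5.74 ± 0.37). In A375 it had 36.9 ± 2.79 CPM in the combination and 11.7 ± 4.35 CPM under vemurafenib (1.403 ± 0.15). Its log2 fold change was 3.21 ± 0.32 in PC9, 0.40 ± 0.43 in A549, -0.17 ± 0.13 in H3122 and 0.07 ± 0.14 in N87. ETV1, which was tested, rose in A375 by 0.61 ± 0.08 (adjusted p = 8.62e-07) and in N87 by 0.96 ± 0.33 (adjusted p = 0.0174), and the N87 call was lost without combination replicate 3 (0.0759) or lapatinib replicate 1 (0.0918). In PC9 it had 8 counts in the combination and 3 under erlotinib, a ratio of 2.74 with a counting interval of 0.657 to 16.0.

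The third comparison sets the targeted drug at 7 days against the same drug at 48 h. Its 48 h libraries are again those whose low levels of ETV4, ETV5 and TERT chose these genes, so the 3 genes are described with no test. The limit given above for the p-values of the tested members holds here too. Across lines 0 of the 4 tested members were called at 7 days against 48 h, as was 0% of all genes tested. At an unadjusted p under 0.05 edgeR had 761 genes and none of the 4, and DESeq2 called 26 genes and none of the 4. Within lines 1 of the 5 tested members was called in A375 (40% of genes), 3 of 5 in A549 (51.3%), 4 of 5 in H3122 (63.9%) and 4 of 5 in PC9 (52.9%). N87 had 0 of 5 (42.6% of genes, unadjusted 2, DESeq2 0) and RT112 0 of 4 (37% of genes, unadjusted 0, DESeq2 0). The contrast differed between lines for all 5 and for 71.6% of genes.

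In H3122, ETV4 was at 119.7, 126 and 123 CPM at 7 days, against 41.2 ± 6.37 CPM at 48 h, a log2 fold change of 1.61 ± 0.09. ETV5 there was at 51.4, 56.98 and 45.1 CPM at 7 days and 11.6 ± 0.8104 CPM at 48 h (2.18 ± 0.10). ETV1, which was tested, rose to 38.97, 47.96 and 57.96 CPM at 7 days, against 17.9 ± 1.42 CPM at 48 h (1.47 ± 0.11, adjusted p = 1.25e-09). All 9 of these 7-day values were above the 48 h DMSO libraries of H3122, a comparison that was not tested because times differ. PC9 at 7 days held 7.94, 7.701 and 7.95 CPM of ETV4 and 2.58, 2.2 and 2.7 CPM of ETV5, against 1.83 ± 0.331 and 0.247 ± 0.0659 CPM at 48 h. The log2 fold changes were 1.97 ± 0.13 for ETV4 and 3.18 ± 0.31 for ETV5, and the DMSO means were 73.8 and 35.6 CPM. ETV1 in PC9 had 0 counts in the 3 libraries at 7 days, which allows up to 0.0742 CPM (3 counts over the group), and 3 counts at 48 h, so no fold is given. EdgeR called it lower (adjusted p = 0.0457), but not without any 1 of the 7-day libraries or 48 h replicate 2 or 4 (0.0704 to 0.21), and DESeq2 did not call it (0.101).

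In A375 ETV4 was at 4.85, 4.399 and 4.26 CPM at 7 days and 1.71 ± 0.453 CPM at 48 h (1.39 ± 0.19), and in N87 at 9.35, 9.13 and 8.39 CPM at 7 days and 5.95 ± 0.778 CPM at 48 h (0.59 ± 0.13). In both lines every 7-day library was above every 48 h library. ETV5 in N87 was lower, with 3.82 ± 0.465 CPM at 7 days and 5.35 ± 0.536 CPM at 48 h (-0.47 ± 0.15), and in A375 its log2 fold change was 0.26 ± 0.16, or 0.67 without 48 h replicate 4. In RT112 ETV4 was at 1.05, 1.09 and 1.25 CPM at 7 days and 1.14 ± 0.387 CPM at 48 h, and in A549 at 0.157, 0.323 and 0.321 CPM at 7 days and 0.219 ± 0.204 CPM at 48 h, with overlap in both lines.

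THZ1 alone against DMSO gave PEA3 calls of under 1 on the log2 scale, in both directions. The DMSO libraries here are also those beside which the low levels of ETV4, ETV5 and TERT under the targeted drugs stood. The p-values of these genes carry that limit. Across lines 0 of 7 members were called for THZ1 against DMSO, where 0.0842% of genes were. EdgeR had no member at an unadjusted p under 0.05, and DESeq2 called none. Within lines 4 of 8 members were called in A375 (55.4% of genes), 2 of 8 in A549 (46.5%), 4 of 8 in H3122 (23.1%), 3 of 8 in N87 (30.4%), 6 of 8 in PC9 (53.7%) and 5 of 7 in RT112 (41.4%). Lines differed for all 8 members and for 61.4% of genes.

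ETV4 was lower in A549, at 50.9 ± 2.16 CPM under THZ1 and 73.4 ± 4.67 CPM in DMSO (-0.54 ± 0.07, adjusted p = 4.54e-06), and higher in PC9, at 107 ± 4.58 CPM under THZ1 and 73.8 ± 0.886 CPM in DMSO (0.47 ± 0.05, adjusted p = 3.97e-08). In the other 4 lines its log2 fold change lay between -0.09 in A375 and 0.12 in N87, with a call in A375 without THZ1 replicate 3 (-0.15, adjusted p = 0.0268). ETV5 fell in RT112 (-0.87 ± 0.12, adjusted p = 3.57e-05), A375 (-0.44 ± 0.10, adjusted p = 0.00167) and A549 (-0.44 ± 0.07, adjusted p = 1.36e-05) and rose in PC9 (0.57 ± 0.07, adjusted p = 4.66e-07). ETV1 rose in PC9, to 9.35 ± 0.555 CPM under THZ1 against 4.78 ± 0.377 CPM in DMSO (0.90 ± 0.18, adjusted p = 0.000389). All 3 PEA3 factors were thus called higher in PC9. A call of ETV1 in N87 (0.58 ± 0.21, adjusted p = 0.0469) did not hold with DESeq2 (0.178), with RLE scaling (0.0516), with the replicate number as a block (0.216), or without any 1 of the THZ1, DMSO or combination libraries or lapatinib replicate 2 at 48 h (0.0517 to 0.15).

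TERT fell with ETV4 and ETV5 in 5 lines when the targeted drug was added to THZ1, and was not called in H3122. Under the targeted drug at 48 h, as part of the values that chose it, TERT was at 1.93, 1.17 and 1.503 CPM in RT112, against 20.3, 19.03 and 21.5 CPM in DMSO. A375 had 0.503, 1.27 and 0.778 CPM under vemurafenib and 8.09, 6.74 and 7.15 CPM in DMSO, and N87 0.632, 0.807 and 0.594 CPM under lapatinib and 3.55, 3.5 and 3.09 CPM in DMSO. In A549 and PC9 a single count was left in the 3 libraries under the drug, against 69 and 28 counts in DMSO. H3122 alone overlapped, with 2.38, 3.41 and 2.98 CPM under crizotinib and 2.16, 4.73 and 3.32 CPM in DMSO.

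Against THZ1 alone, the combination had less TERT in 5 lines. RT112 had 4.38, 3.86 and 4.44 CPM in the combination and 11.6, 12.5 and 13.6 CPM under THZ1 (-1.604 ± 0.13, adjusted p = 4.98e-08). In N87 the values were 0.195, 0.329 and 0.107 CPM in the combination and 1.92, 1.44 and 2.01 CPM under THZ1 (-3.08 ± 0.41, adjusted p = 1.02e-06). PC9 had 0.275, 0.178 and 0.204 CPM in the combination and 1.54, 1.85 and 1.92 CPM under THZ1 (-2.84 ± 0.44, adjusted p = 1.21e-05). The N87 and PC9 combination groups rest on 6 and 7 counts. In N87, PC9 and A549 TERT passed the count filter through arms where it was higher than in the combination. Its p-values in these lines carry that limit. A375 had 2.08, 1.75 and 1.005 CPM in the combination and 3.54, 2.89 and 3.52 CPM under THZ1 (-1.11 ± 0.30, adjusted p = 0.00562), and A549 2 counts in the combination and 99 under THZ1, a ratio of 48.6 with a counting interval of 13.1 to 406.7 (edgeR adjusted p = 6.53e-07). In none of these 5 lines did the groups overlap. In H3122, where all 3 PEA3 factors fell, TERT was at 7.33, 5.23 and 6.53 CPM in the combination and 4.61, 4.49 and 6.05 CPM under THZ1 (0.25 ± 0.23, adjusted p = 0.367), with overlap. The difference between lines had an adjusted p of 1.39e-13.

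Set against the targeted drug alone, TERT in the combination is a description too, since its low level under that drug at 48 h was part of the choice. In RT112 the mean was 4.23 ± 0.3202 CPM in the combination and 1.53 ± 0.383 CPM under BGJ398 (1.504 ± 0.18). H3122 had 6.36 ± 1.05 CPM in the combination and 2.92 ± 0.519 CPM under crizotinib (1.13 ± 0.24), and every combination library there was also above every DMSO library. In PC9 there were 7 counts in the combination and 1 under erlotinib, a ratio of 7.18 with a counting interval of 0.923 to 323.8. TERT was lower in N87, at 0.2103 ± 0.112 CPM in the combination against 0.678 ± 0.114 CPM under lapatinib (-1.67 ± 0.49), on 6 and 20 counts. A375 had a log2 fold change of 0.76 ± 0.39, and in A549 both groups were at or under 3 counts.

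After 7 days, again as a description, TERT was at 1.46, 1.26 and 1.5 CPM in PC9, 57 counts against 1 count at 48 h, a ratio of 46.2 with a counting interval of 7.97 to 1858. Each 7-day value was above the PC9 DMSO libraries of 48 h, which was not tested, whereas ETV4 at 7 days was at 7.86 CPM against 73.8 CPM in DMSO. In A375 TERT was at 2.62, 1.698 and 3.497 CPM at 7 days, against 0.503, 1.27 and 0.778 CPM at 48 h (1.47 ± 0.36), and in H3122 at 5.14, 4.07 and 5.84 CPM at 7 days, against 2.38, 3.41 and 2.98 CPM at 48 h (0.83 ± 0.24). The groups did not overlap in these lines. RT112 had 0.892, 1.403 and 1.17 CPM at 7 days (-0.39 ± 0.23) and N87 0.725, 1.08 and 0.807 CPM (0.30 ± 0.37). A549 had 0 counts at 7 days, which allows up to 0.160 CPM over the group, and 1 count at 48 h.

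Under THZ1 alone against DMSO, TERT fell in 3 lines and rose in 1. The limit given above for the DMSO libraries holds for these p-values. It fell in A375, to 3.32 ± 0.373 CPM under THZ1 against 7.33 ± 0.688 CPM in DMSO (-1.24 ± 0.26, adjusted p = 0.000455), in N87, to 1.79 ± 0.307 against 3.38 ± 0.252 CPM (-0.98 ± 0.24, adjusted p = 0.0045), and in RT112, to 12.6 ± 0.982 against 20.3 ± 1.21 CPM (-0.76 ± 0.11, adjusted p = 4.20e-05). ETV4 was not called in these 3 lines, while ETV5 fell in A375 (-0.44 ± 0.10) and RT112 (-0.87 ± 0.12) and was not called in N87 (0.13 ± 0.08). In PC9 TERT rose to 1.77 ± 0.201 CPM under THZ1, against 0.812 ± 0.342 CPM in DMSO (1.05 ± 0.33, adjusted p = 0.0118), and the call was lost with DESeq2 (0.0579) and without DMSO replicate 4 (0.081). A549 (0.57 ± 0.35) and H3122 (0.55 ± 0.24) were not called, though H3122 was without DMSO replicate 3 (0.87, adjusted p = 0.0284). The lines differed, with an adjusted p of 7.54e-09.

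**Figure D2:**
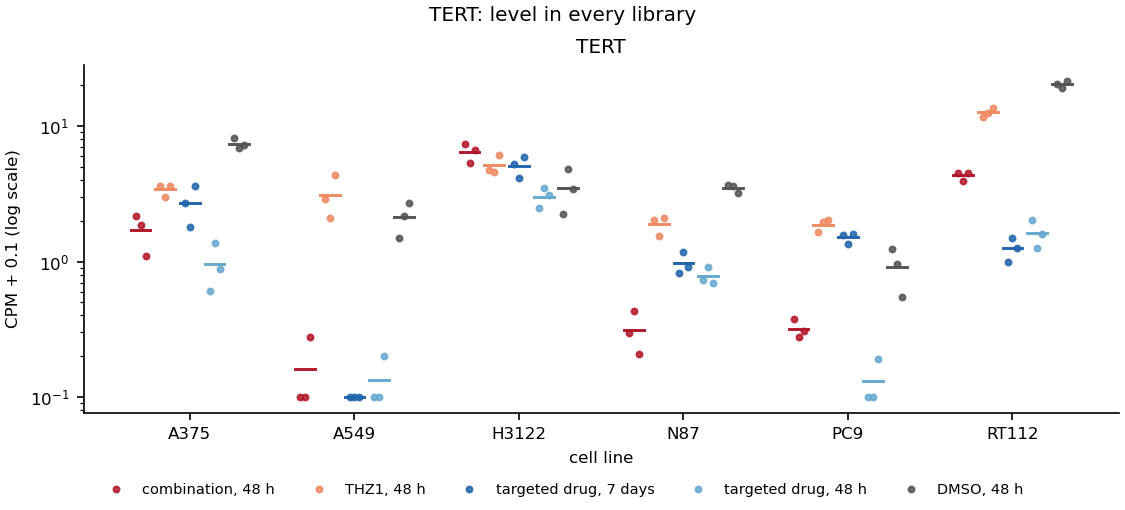
Level of TERT in each library (points, CPM + 0.1 on a log axis) and group mean (bars, n = 3), by cell line and arm. RT112 has 4.23 CPM in the combination, 12.6 under THZ1, 1.15 at 7 days, 1.53 at 48 h of BGJ398 and 20.3 in DMSO, while the arms of H3122 stay between 2.92 and 6.36 CPM.

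ETS1, the founding member of the family, rose in some lines and fell in others in 3 of the 4 comparisons tested, and the lines differed in each (adjusted p at most 4.82e-12). Under vemurafenib for 48 h it stood at 379, 353 and 374.7 CPM in A375, against 61.1, 60.9 and 58.3 CPM in DMSO, and it was also above DMSO in RT112 and A549 and below it in PC9 and H3122. With THZ1 added, ETS1 in A375 was at 119.6, 115 and 112 CPM and fell against vemurafenib alone (-1.84 ± 0.05, adjusted p = 6.82e-16). It fell likewise in RT112, to 34.6, 39.5 and 36.8 CPM in the combination against 85.6, 84.9 and 84.1 CPM under BGJ398 (-1.15 ± 0.05, adjusted p = 1.41e-11), and in A549 (-0.43 ± 0.09, adjusted p = 0.00104). In PC9 it rose, to 73.6, 73.2 and 70.7 CPM in the combination against 32.5, 36.8 and 33.3 CPM under erlotinib (1.01 ± 0.05, adjusted p = 7.62e-13). N87 (0.41 ± 0.09, adjusted p = 0.000632) and H3122 (0.40 ± 0.08, adjusted p = 0.00156) rose as well.

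In the combination against THZ1, ETS1 rose in A375 (0.48 ± 0.06) and A549 (0.57 ± 0.10) and fell in H3122, to 28.2 ± 2.35 CPM in the combination against 56.7 ± 1.44 CPM under THZ1 (-1.08 ± 0.08), and in PC9 (-0.34 ± 0.05), with adjusted p-values of 4.56e-09 to 5.83e-05. Under THZ1 against DMSO it rose in PC9 (0.66 ± 0.05, adjusted p = 5.12e-10), H3122 (0.38 ± 0.07, adjusted p = 0.00109), N87 (0.35 ± 0.09, adjusted p = 0.00476) and A375 (0.30 ± 0.06, adjusted p = 0.000352) and fell in RT112 (-0.31 ± 0.05, adjusted p = 0.000124). The largest of these, in PC9, took ETS1 to 99.8, 98.4 and 102 CPM under THZ1, against 60.9, 57.7 and 63.98 CPM in DMSO. At 7 days against 48 h H3122 was the line with a call, at 50.7, 56.5 and 53.7 CPM at 7 days and 19.4, 23.5 and 21.6 CPM at 48 h (1.36 ± 0.08, adjusted p = 2.63e-11), while the other 5 lines had log2 fold changes of -0.11 to 0.19.

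ETS2, a close relative of ETS1, was the most abundant member in A549 and N87 in every arm on the per-length scale. ETS2 rose in A549 when GSK1120212 was added to THZ1, to 440.5, 406 and 416 CPM in the combination against 139, 128 and 133 CPM under THZ1 (1.63 ± 0.05, adjusted p = 2.63e-17). It rose in N87, to 434, 415 and 433 CPM in the combination against 193, 193 and 204 CPM under THZ1 (1.06 ± 0.08, adjusted p = 1.95e-10), and in PC9, to 53.6 ± 3.53 CPM in the combination against 33.4 ± 1.002 CPM under THZ1 (0.80 ± 0.09, adjusted p = 2.03e-07). The groups did not overlap in these lines. Against the targeted drug alone the combination had less ETS2 in A549 (-0.51 ± 0.04, adjusted p = 1.41e-08) and PC9 (-0.34 ± 0.09, adjusted p = 0.00166). Under THZ1 against DMSO it fell in PC9 (-0.51 ± 0.09, adjusted p = 0.000105) and H3122 (-0.44 ± 0.09, adjusted p = 0.00132). At 7 days against 48 h it rose in H3122 (0.85 ± 0.08, adjusted p = 6.71e-08) and A549 (0.27 ± 0.04, adjusted p = 2.67e-05) and fell in A375 (-0.95 ± 0.13, adjusted p = 1.41e-05) and PC9 (-0.42 ± 0.08, adjusted p = 0.000278).

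In RT112, 1 library per arm stood apart in ETS2. Replicate 1 was at 652 CPM under BGJ398 at 48 h, where the others averaged 194.8 CPM, and at 459 CPM in DMSO, where the others averaged 193.8 CPM. At 7 days it was at 474 against 239.7 CPM, in the combination at 231 against 170.4 CPM, and THZ1 has no replicate 1. The other members were at 0.694 to 1.45 times the mean of the other libraries in the same replicate 1 libraries, apart from ETV1 and ETV5 at counts near 0. With all libraries the THZ1 effect on ETS2 was -1.29 ± 0.45 (adjusted p = 0.0317). The call was lost without DMSO replicate 1 alone (0.214) or any 1 of the 3 THZ1 libraries (0.0754 to 0.0837). It held with DESeq2 and in the fit without the replicate 1 libraries of every arm. The other DMSO libraries, at 191 and 196.5 CPM, were above the THZ1 libraries at 117 to 125 CPM. With the replicate 1 libraries left out, ETS2 in RT112 rose in the combination against THZ1 (0.425, adjusted p = 5.21e-08, against 0.61, adjusted p = 0.279 with them). It rose at 7 days against 48 h as well (0.31, adjusted p = 9.71e-06, against -0.13, adjusted p = 0.852 with them). The combination against BGJ398 showed a fall without them (-0.155, adjusted p = 0.00613, against -0.83, adjusted p = 0.112 with them).

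The largest change among the calls of GABPA and GABPB1 was that of GABPA in PC9. It stood at 63.4, 63.05 and 66.1 CPM in the combination, against 36.2, 38.7 and 37.4 CPM under THZ1 and 27.9, 29.9 and 28.01 CPM under erlotinib. The combination was above both single drugs in every library, and it rose against THZ1 (0.90 ± 0.05, adjusted p = 8.28e-12) and against erlotinib (1.09 ± 0.06, adjusted p = 3.57e-13). GABPA shares 413 exon bases, 7.61% of its exons, with ATP5PF on the other strand, and the library kit does not mark strand. ATP5PF in PC9 was at 44.8 CPM in the combination, 49.4 under THZ1 and 36.3 CPM under erlotinib. The part of ATP5PF reads in the GABPA values was not tested. In A375 GABPA fell against vemurafenib (-0.68 ± 0.07, adjusted p = 1.43e-07), to 35.02 ± 2.43 CPM in the combination against 50.2 ± 3.01 CPM under vemurafenib. In A549 it fell against THZ1 (-0.51 ± 0.06, adjusted p = 4.81e-07). Its other 7 calls lay between -0.37 and 0.25.

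GABPB1 fell in A375 in the combination against vemurafenib, with 39.96, 37.9 and 39.3 CPM in the combination and 76.9, 60.8 and 66.4 CPM under vemurafenib (-0.96 ± 0.08, adjusted p = 5.50e-09), and no library of the 2 groups overlapped. In A549 it fell in the combination against THZ1, with 25.6, 27.9 and 27.7 CPM in the combination and 43.7, 42.2 and 44.3 CPM under THZ1 (-0.71 ± 0.06, adjusted p = 1.70e-09). Its other 7 calls were smaller, from -0.32 in N87 in the combination against lapatinib to 0.27 in PC9 at 7 days. The call in H3122 under THZ1 against DMSO (0.26 ± 0.08, adjusted p = 0.029) was lost with the replicate block (0.0643) and without DMSO replicate 3 or 4 or any 1 of the 3 THZ1 libraries (0.0596 to 0.124). GABPB1 shares 424 exon bases, 7.47% of its exons, with the antisense gene GABPB1-AS1, and reads of the pair cannot be told apart there. ETV4 shares 1.89% of its exon bases with DHX8 and ETV5 2.83% with DGKG, and the part of their reads in these members was not tested.

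**Figure D3:**
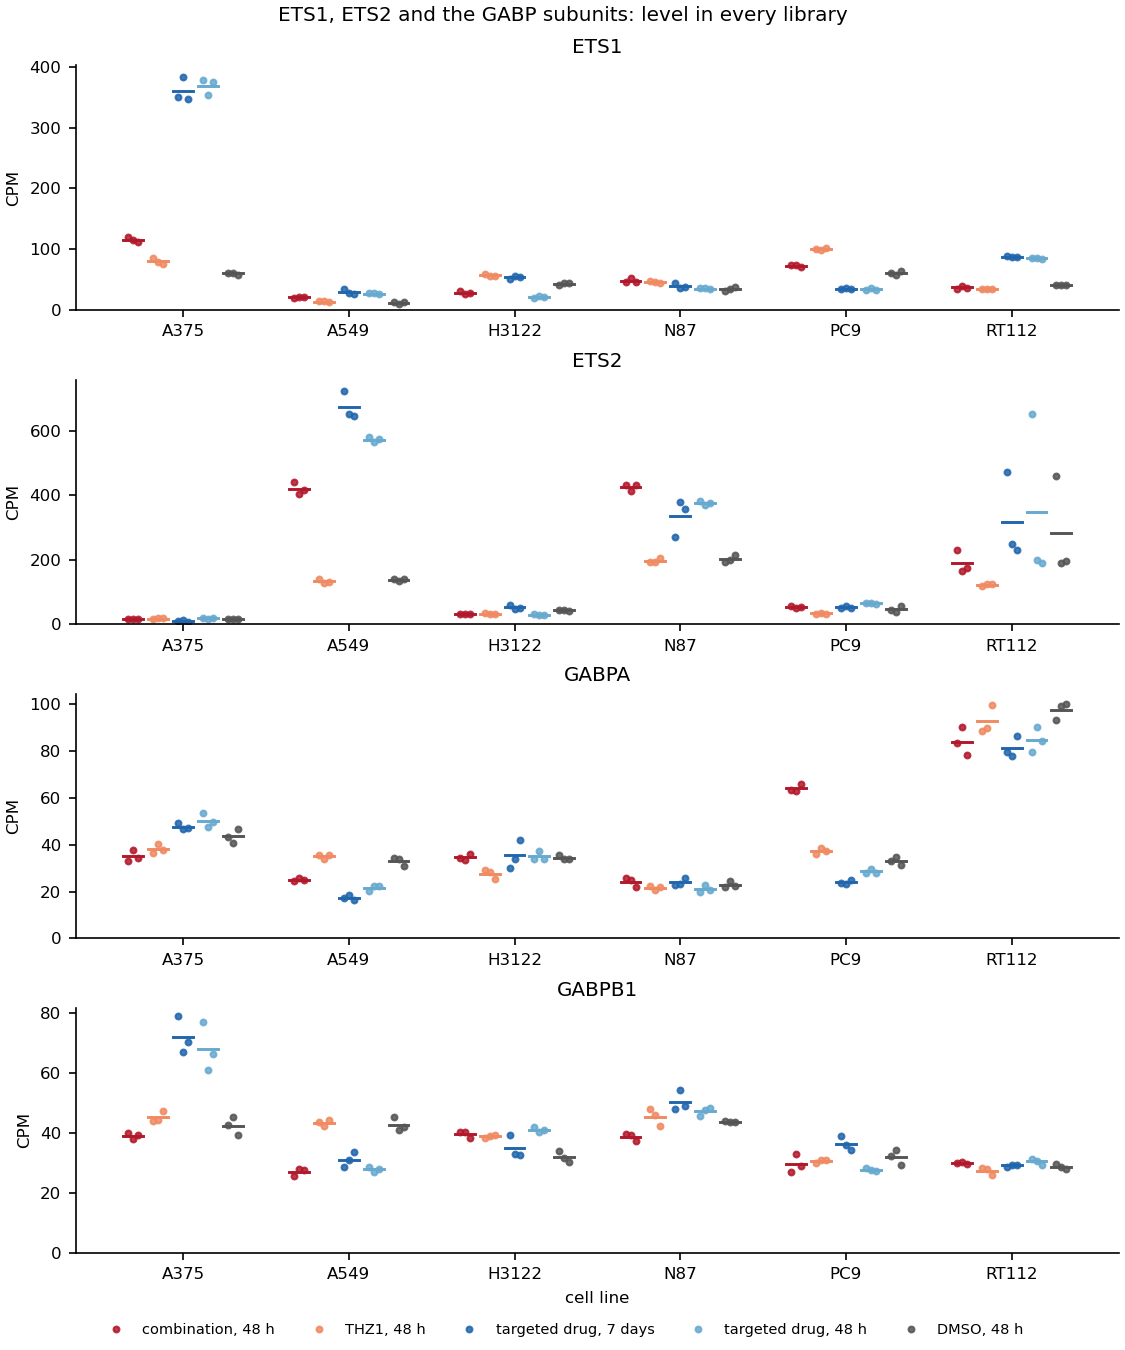
Level of ETS1, ETS2, GABPA and GABPB1 in each library (points, CPM, linear axes from 0) and group mean (bars, n = 3), by cell line and arm. ETS1 in A375 has 116 CPM in the combination, 80.4 under THZ1, 361 at 7 days, 369 at 48 h of vemurafenib and 60.1 in DMSO, and 1 RT112 library in each of 4 arms is high in ETS2.

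**Figure D4:**
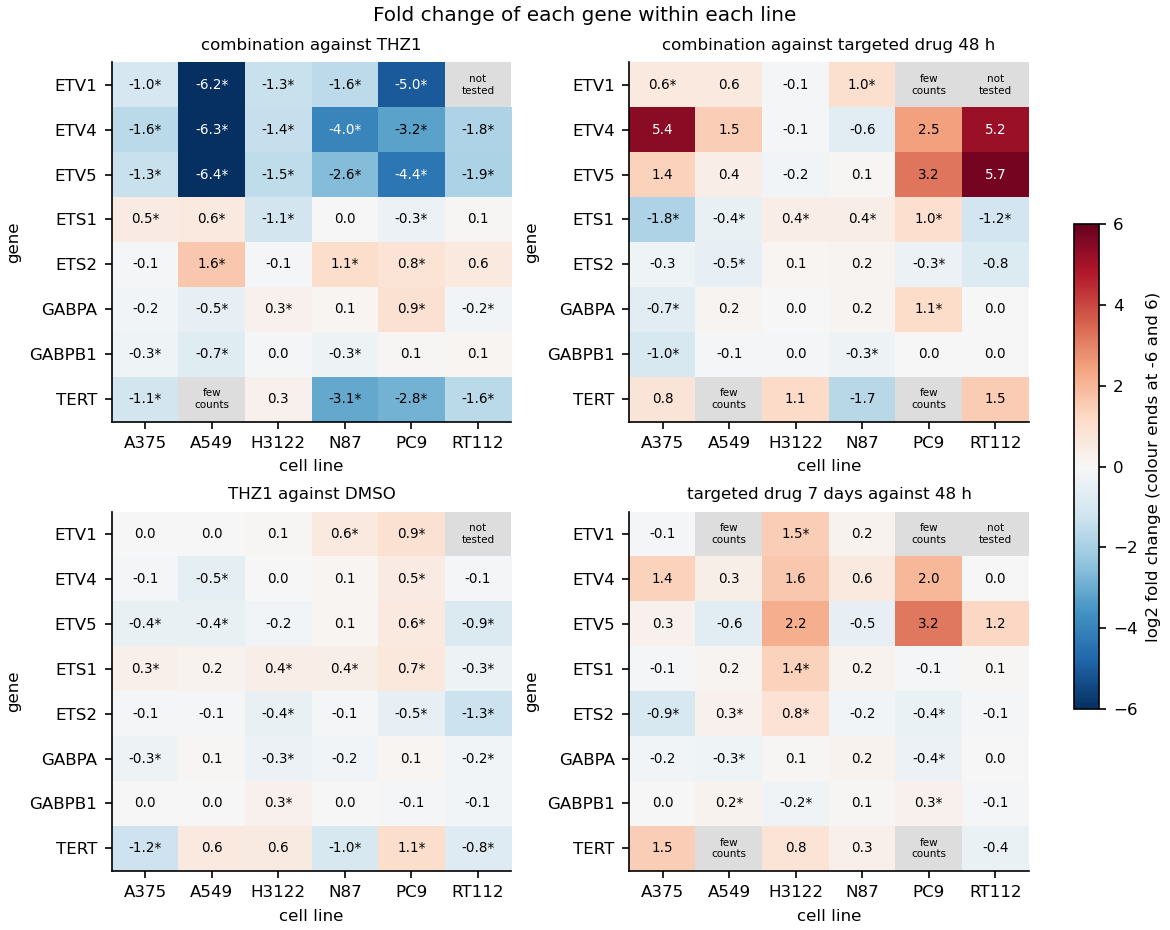
Log2 fold change of each member within each line from edgeR, for 4 comparisons (red above 0, blue below 0, colour ending at -6 and 6, * for adjusted p under 0.05, not given to ETV4, ETV5 and TERT in the comparisons with 48 h). Grey cells hold genes with 3 counts or fewer in 1 of the groups or with too few counts to be tested, and ETV4 is marked in all 6 lines in the combination against THZ1.

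Other genes of the pathway were read from 4 lists, chosen with earlier results of these data known, in the fit across lines. Of 22 other ETS family genes 10 were tested. Of these 10, 2 rose and 1 fell in the combination against THZ1, ELF3, an epithelial ETS factor (1.197 ± 0.28, adjusted p = 0.00682), ELF1 (0.81 ± 0.16, adjusted p = 0.00362) and ELK1, an ERK substrate that works with SRF (-0.36 ± 0.09, adjusted p = 0.0116). The median of the 10 was 0.12 and that of all genes 0.04. ELF3 and ELF1 were called higher in each of the 6 lines within lines too. Under the targeted drug against DMSO, where 37.1% of all genes were called, the same 3 genes were called in the same directions, and ELF1 had the largest change at 0.91 ± 0.16 (adjusted p = 0.000401), with 1 gene of the list higher, not 2, without A549, N87, PC9 or RT112. None of the 10 was called for THZ1 against DMSO (edgeR unadjusted p under 0.05 for 0, DESeq2 0), in the combination against the targeted drug (1 and 0) or at 7 days against 48 h (0 and 0). The largest log2 fold changes there were -0.55 for ELF3 and -0.27 for ELK4 under THZ1, -0.36 for ELK3 and -0.31 for ELK4 in the combination, and 0.29 for ETV3 and -0.24 for ELF4 at 7 days.

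Of 9 regulators and partners of PEA3 factors and GABP, 8 were tested. The combination against THZ1 had 1 call, ATXN1L, a partner of capicua (0.35 ± 0.11, adjusted p = 0.0308), which was lost without A549, N87, PC9 or RT112. Under the targeted drug against DMSO it was again the single call (0.39 ± 0.11, adjusted p = 0.00951). Of all genes 20.7% and 37.1% were called in these 2 comparisons. Set against the targeted drug, the combination had 2 that fell, where 8.03% of all genes were called, DET1 (-0.98 ± 0.28, adjusted p = 0.0297) and GABPB2, the other GABP beta subunit (-0.90 ± 0.19, adjusted p = 0.00743). Neither was called without RT112, and 1 of them without A375 or PC9. The list median was -0.20 there, against 0.00 for all genes. THZ1 against DMSO had no call (unadjusted 1, DESeq2 0), with TRIB1, an adaptor of COP1, at -0.90 and DET1 at -0.48, and neither had 7 days against 48 h (0 and 0), with DET1 at 0.18 and CIC, capicua itself, at 0.12.

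The 21 other genes of ERK output and feedback, of which 18 were tested, held the most calls of the 4 lists both under the targeted drug and in the combination against THZ1. Under the targeted drug against DMSO 15 of the 18 fell and none rose, where 37.1% of all genes were called, with a median of -1.44 against 0.05 for all genes, led by the ERK pathway inhibitor SPRY4 (-4.37 ± 0.75, adjusted p = 0.000249). The combination against THZ1, with 20.7% of all genes called, had 8 calls, all lower, among them SPRY4 (-3.02 ± 0.70, adjusted p = 0.00685), the ERK phosphatase DUSP6 (-2.37 ± 0.54, adjusted p = 0.00616), PHLDA1 (-1.40 ± 0.36, adjusted p = 0.0108) and FOSL1 (-1.37 ± 0.46, adjusted p = 0.0391). The median was -0.89 there, against 0.04 for all genes, and the count was 2 without A549, 3 without PC9 and 4 without N87. In the combination against the targeted drug, with 8.03% of all genes called, VGF (3.25 ± 0.91, adjusted p = 0.0289) and the cyclin CCND1 (0.97 ± 0.28, adjusted p = 0.0370) rose and EGR1 fell (-2.04 ± 0.58, adjusted p = 0.0304), and none of the list was called without PC9 or without RT112. EGR1 was also lost without A375 or N87, and 1 of the 2 that rose without A375. The list had no call for THZ1 against DMSO (edgeR unadjusted 3, DESeq2 1), where EGR1 had -2.10 and SPRY1 -0.76, nor at 7 days against 48 h (6 and 0), where MYEOV had 2.22 and VGF 1.74.

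All 18 partners of telomerase and parts of shelterin, the complex that caps telomeres, were tested. In the combination against THZ1, in which TERT fell across lines, 7 of 18 fell and none rose, with 20.7% of all genes called and a median of -0.31 against 0.04 for all genes. RTEL1, a telomere helicase, changed by -0.98 ± 0.28 (adjusted p = 0.0187), DKC1, the pseudouridine synthase of the telomerase particle, by -0.96 ± 0.19 (adjusted p = 0.00288), ACD, the shelterin protein TPP1, by -0.75 ± 0.14 (adjusted p = 0.00209) and NHP2 by -0.64 ± 0.18 (adjusted p = 0.0170). The count was 2 without A549 or without N87, and 6 when the RT112 replicate 1 libraries and replicate 1 of H3122 at 7 days, which stood apart, were left out. Under the targeted drug against DMSO, with 37.1% of all genes called, 10 fell and 2 rose, with a median of -0.33 against 0.05 for all genes. RTEL1 changed by -1.58 ± 0.28 (adjusted p = 0.000358) and DKC1 by -1.23 ± 0.19 (adjusted p = 0.000128), and the 2 that rose, named after their values were seen, were the shelterin bridge TINF2 (0.61 ± 0.12, adjusted p = 0.000865) and TEN1 (0.37 ± 0.12, adjusted p = 0.0203). In the combination against the targeted drug PINX1, a telomerase inhibitor, rose (0.91 ± 0.24, adjusted p = 0.0213), and was not called without A375, PC9 or RT112, while 3 genes rose without H3122. TINF2 fell (-0.80 ± 0.12, adjusted p = 0.000999). These 2 of 18 stand beside 8.03% of all genes called there. THZ1 against DMSO had no call (edgeR unadjusted 1, DESeq2 0), with PINX1 at 0.39 and SHQ1 at 0.28. Neither had 7 days against 48 h (1 and 0), with RTEL1 at 0.70 and CTC1 at 0.29.

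The genes whose pattern over the 30 line and arm means was most like that of each member, after centring log2 CPM within lines, are given as a description, since the means share lines, arms and drugs. ETV4 was most like TIMM50 (r = 0.95), ETV5 (0.95) and MRM2 (0.95). ETV5 was most like SPRED2 (0.96), ETV4 (0.95) and SPRY4 (0.94), and ETV1 like RPL7L1, BAZ1B and TMED8 (all 0.90). For TERT the 3 genes were DDX12B (0.93), PFAS (0.92) and DDX21 (0.92), and its r was 0.87 with ETV4, 0.88 with ETV5 and 0.72 with ETV1. The means include the drug arm at 48 h, where ETV4, ETV5 and TERT were chosen for low levels. A high r among these genes follows in part from that choice. ETS2 was most like CASZ1 (0.91), CLDN4 (0.87) and CTIF (0.86), and its r with TERT was -0.73. ETS1 was nearest to ENDOD1 (0.80), QKI (0.80) and AKAP6 (0.78). The GABP subunits had looser neighbours, USP21 (0.79), NCBP2 (0.75) and POLDIP3 (0.72) for GABPA and PP7080 (0.82), TFAP2A (0.77) and TRMT10B (0.76) for GABPB1. Between GABPA and TERT r was 0.26, and between GABPB1 and TERT 0.29.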

How the data were processed

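Sequencing was of RNA from 90 libraries, prepared with a kit that keeps no strand information, per the labels' protocols. The deposited table holds expected counts per gene, made by the authors with RSEM 1.2.12 and Bowtie2 2.2.1 on hg19, per the submitters' processing notes, and which annotation was used is not stated there. Of each library's values, 7.83 to 13.75% were not whole, and all were rounded to whole numbers before testing. CPM values and TMM factors were computed here.

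Members were matched by symbol. The members, the gene lists and the tests were chosen with earlier results of these data known. Named are all 8 members, list genes called in a comparison (the largest 4 of each list), the largest uncalled genes where none was called, and the 3 genes most like each member.

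edgeR 4.0.16 in R 4.3.3 was used throughout. Within a line, 15 libraries entered 1 quasi-likelihood fit with filterByExpr, which keeps a gene that is high enough in as few as 3 libraries. Across lines, libraries were summed to 30 line and arm totals with line as a term, over genes that reached 1 CPM in 3 or more libraries of each line. The difference between lines was an F test over all 90 libraries. P-values were adjusted by Benjamini-Hochberg over all genes tested. Scripts were tested on simulated data. Counting intervals and floors (3 counts over the group, 95% exact) cover counting error only. Alternatives were DESeq2 1.42.0, RLE scaling, no filter, a replicate block, the 2 arms alone, and leaving out lines or libraries. The 4 comparisons and that of the targeted drug with DMSO share arms, so they are not independent. Every library correlated best with its own group, including 1 A375 vemurafenib library whose tissue label reads lung.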

Additional observations from a re-analysis of the deposited data

Results flagged for a closer look

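Each comparison was tested for a difference between the 6 lines with edgeR's quasi-likelihood F test, and every member tested differed, as did 61.4 to 73.8% of all genes. Its error is the spread between libraries, which may be technical, and line, drug and doses cannot be told apart in it. For the combination against THZ1 the adjusted p was 4.15e-38 for ETV4, 1.71e-30 for ETV5, 6.85e-24 for ETV1, 1.39e-13 for TERT, 8.34e-25 for ETS1, 5.32e-05 for ETS2, 1.31e-19 for GABPA and 3.40e-08 for GABPB1. For the combination against the drug alone it was 0.000453 for ETV1, 2.10e-41 for ETS1, 0.0318 for ETS2, 7.63e-24 for GABPA and 1.12e-13 for GABPB1. For the targeted drug at 7 days against 48 h it was 2.54e-12 for ETV1, 1.30e-22 for ETS1, 0.00446 for ETS2, 9.69e-06 for GABPA and 0.00125 for GABPB1. For THZ1 against DMSO it was 2.40e-13 for ETV4, 9.19e-14 for ETV5, 0.000183 for ETV1, 7.54e-09 for TERT, 4.82e-12 for ETS1, 0.00727 for ETS2, 0.000261 for GABPA and 0.00482 for GABPB1. With 1 numbered library of every group left out, ETS2 lost its call in the combination against the targeted drug (0.0845 and 0.104) and at 7 days against 48 h (0.055), and GABPB1 lost its call at 7 days against 48 h (0.0573 and 0.162) and for THZ1 against DMSO (0.139 and 0.17).

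In 4 of 32 sets of log2 fold changes, 28 with 6 lines and 4 of ETV1 with 5, a single line lay far from the others by Dixon's criterion, which chance meets in about 1 of 20 sets. ETS1 at 7 days against 48 h was at 1.36 in H3122 and between -0.114 and 0.189 in the other 5 lines. ETS2 in THZ1 against DMSO was at -1.29 in RT112, the line in which replicate 1 stood apart, and between -0.51 and -0.0731 elsewhere. GABPB1 was at 0.263 in H3122 in THZ1 against DMSO, where the other lines ran from -0.144 to 0.00707, and at -0.96 in A375 in the combination against vemurafenib, where the other lines ran from -0.318 to 0.0234.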

How the results depend on the processing

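Over 200 tested member results and 3334 alternative fits, RLE scaling changed the call of 5 results, DESeq2 of 8, no filter on low counts of 12 and the arm pair fitted alone of none. Leaving out 1 library, line or numbered set ended a call in 83 fits and made one in 18. Counts of genes called across lines moved most. For the combination against the targeted drug the count was 954, against 1484 with DESeq2, 438 with no filter and 189 with the 2 arms alone, and 214 to 1196 with a line left out (242 without A375, 214 without PC9, 235 without RT112). For the combination against THZ1 it was 2456, against 1215 with no filter and 662 to 2502 with a line left out (829 without A549, 662 without N87, 1459 without PC9). For THZ1 against DMSO it was 10, against 194 with DESeq2, 717 with the 2 arms alone and 0 to 13 with a line left out (2 without PC9, 0 without A375, A549, N87 or RT112), and at 7 days against 48 h 0, against 26 with DESeq2. The cause of these moves was not tested. ETS2 in RT112 at 7 days against 48 h was 0.312 without the libraries that stood apart and -0.13 with them. Replicate numbers recur between arms, but of 30 comparisons 8 share 3 numbers. None of these had every correlation of deviations over 0.1 (range -0.082 to 0.097), and the fits of all lines are unpaired. The RT112 comparisons share 2 numbers and so were outside this rule. Their correlations ran from -0.027 to 0.405, the highest for replicate 1 under BGJ398 at 48 h against DMSO, so the rule cannot decide on pairing in RT112. A replicate block ended 3 calls, of ETV1 in N87 (THZ1 against DMSO, 0.216), GABPA in H3122 (combination against THZ1, 0.0538) and GABPB1 in H3122 (THZ1 against DMSO, 0.0643). It made 3, of ETS1 in A375 at 7 days (0.0358), ETS2 in RT112 in the combination against BGJ398 (0.0029) and ETS2 in A549 under THZ1 (0.0213). With ETV1 and TERT at a few counts per library in several arms, changes smaller than their counting intervals could not be seen.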

Other observations

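Among the other ETS factors, changes within single lines of the combination against THZ1 were read after their values were seen. ELK3, which works with SRF, fell in A375 (-1.197 ± 0.06, edgeR adjusted p = 2.11e-11), H3122 (-0.83 ± 0.08, adjusted p = 1.11e-07), PC9 (-0.61 ± 0.06, adjusted p = 6.45e-09) and RT112 (-0.37 ± 0.04, adjusted p = 2.89e-06) and was not called in A549 (0.09 ± 0.07) or N87 (-0.09 ± 0.06). SPDEF, an epithelial ETS factor, fell in A549 (-1.47 ± 0.16, adjusted p = 6.26e-08) and H3122 (-1.17 ± 0.10, adjusted p = 3.97e-08). FLI1 fell in A375 (-0.97 ± 0.16, adjusted p = 5.52e-05) and PC9 (-1.31 ± 0.40, adjusted p = 0.00737). ELF3 ranged from 0.48 ± 0.15 in RT112 to 2.24 ± 0.06 in N87, and ELF1 from 0.36 ± 0.04 in RT112 to 1.396 ± 0.05 in N87. The F test of a difference between lines is not given for these genes.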
